A study of Danio rerio with 13 samples.

Results

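The 6mA summits of zebrafish embryos at 11 hours post fertilization (hpf) were compared with those at 13 hpf, in the 4 lists of summits that the 6mA-IP-seq libraries of these stages gave (2 biological replicates each), of 8 lists and 13 samples in the series. All embryos came from the Tubingen line, and gDNA of pooled whole embryos was pulled down with the SYSY antibody against 6mA at both stages. A single input library per stage served as the control for both of its replicates. The 12 hpf lists (2 replicates, SYSY) and the lists of the 64-cell stage (64C, 1 with the SYSY and 1 with the Abcam antibody) were used only as side values. A stage is thus represented by whole embryos of 1 line with 2 libraries and 1 input, and a change of 6mA in a part of the cells and in all of them cannot be told apart.

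N6-methyldeoxyadenosine (6mA) is adenine that carries a methyl group on its exocyclic nitrogen, a mark best known from bacterial DNA, where it serves restriction and modification systems. In 6mA-IP-seq, DNA fragments bound by the antibody are sequenced beside the input, and stretches with more reads than in the input are called as peaks. A summit is a position of highest enrichment within a peak, and 1 peak can hold several summits. From 11 to 13 hpf the zebrafish embryo passes through early somite formation.

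The 4 lists together hold 18081 of the 159142 summits of the series, on the danRer10 assembly. The 11 hpf lists have 7582 (replicate 1) and 4584 (replicate 2) summits and the 13 hpf lists 3476 and 2439, so that the numbers of the stages do not overlap. The difference in means had p = 0.333 in a two-sided exact permutation test, which is the smallest p that 4 lists allow, so that no single value below could reach 0.05. Whether sequencing depth enters these numbers was not tested, since reads were not analysed here. The lists were therefore compared at equal length, taking from each the 2439 summits with the highest score, the −log10 of the q-value that the authors' peak caller gave, and keeping ties by position. This kept 32.2% and 53.2% of the 11 hpf lists, and 70.2% and 100% of the 13 hpf lists. The lowest score kept was 5.84 and 4.71 at 11 hpf, and 2.85 and 2.02 at 13 hpf, so that at equal length the 11 hpf lists hold only their higher scores.

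At equal length the lists of the stages shared fewer regions with each other than the replicates of a stage did. Replicates of a stage share their input library and lists of different stages do not, so that stage and input cannot be told apart here. Regions were made by chaining summits within 250 bp, and those held by both lists were divided by those held by either. The replicates of 11 hpf shared 903 of 2973 regions (30.4%) and those of 13 hpf 855 of 3192 (26.8%). Replicate 1 of 11 hpf shared 20.5% with replicate 1 and 22.5% with replicate 2 of 13 hpf. Replicate 2 of 11 hpf shared 20.9% and 23.0% with them. Both values within a stage thus lay above all 4 between the stages, by 6.89 percentage points in the mean (28.6% against 21.7%). The labelled pairing gave the largest difference of the 3 ways to pair 4 lists (p = 0.333 in a one-sided exact permutation test, which cannot give less). With all summits the means were 27.5% and 20.4%, and the shares between the stages ran from 17.9% to 22.1%. At equal length, pairs of 11 with 12 hpf shared 22.2% to 22.4% and pairs of 12 with 13 hpf 19.6% to 22.1%. The 12 hpf replicates shared 25.6%, so that the gap was not particular to 11 and 13 hpf.

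**Figure D1:**
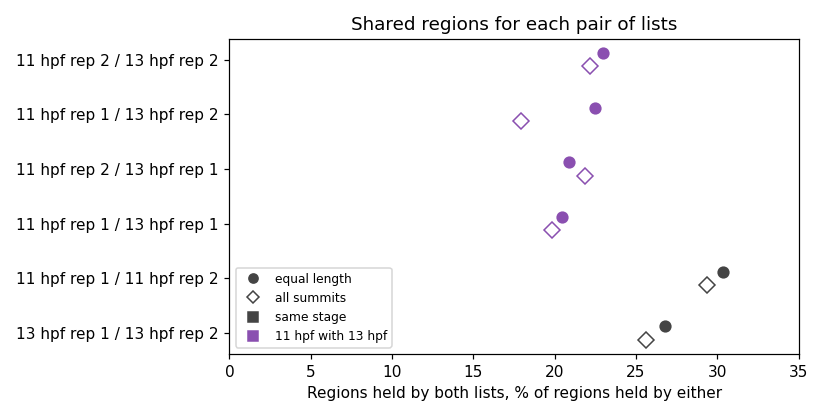
Share of regions held by both lists of a pair among those held by either (x axis, percent), for the 2 pairs of replicates and the 4 pairs of 11 hpf with 13 hpf (y axis), at equal length (filled circles) and with all summits (open diamonds). At equal length the pairs within a stage sit at 26.8% and 30.4% and the pairs between the stages at 20.5% to 23.0%.

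Counted as summits, 44.1% ± 1.20 of the kept 11 hpf summits lay within 250 bp of a kept summit of a given 13 hpf list (SD over 4 pairs of lists, which share lists with each other). In the other direction it was 42.0% ± 2.22 (SD over the same 4 pairs). The 8 single values ran from 39.6% to 45.5%, and those between replicates of a stage from 48.3% to 54.9%, so that the ranges did not overlap. With all summits the shares followed the lengths of the lists. Of the 11 hpf summits 34.3% lay near a given 13 hpf list, and of the 13 hpf summits 57.5% near a given 11 hpf list, with single values from 27.8% to 67.5%.

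At equal length a smaller share of summits lay near the chromosome ends at 13 hpf. The end of a numbered chromosome was taken as the last summit of any of the 8 lists, and shares are of the summits on numbered chromosomes. Within 2 Mb of an end lay 50.8% (95% Wilson interval 48.7 to 52.9%) and 49.8% (47.7 to 51.9%) at 11 hpf, and 43.2% (41.1 to 45.3%) and 45.1% (43.0 to 47.2%) at 13 hpf. The means were 50.3% ± 0.667 and 44.1% ± 1.36 (SD, n = 2 each), a fall of 6.17 percentage points (two-sided exact permutation test, p = 0.333). The intervals cover counting error only. The 12 hpf lists cut to the same length, which kept 64.4% and 54.5% of them, had 46.2% ± 1.38 (SD, n = 2), between the means of the other stages. With all summits the 12 hpf mean was 43.3%, beside 45.2% at 11 hpf and 43.1% at 13 hpf. Within 5 Mb it was then 61.5%, below the 63.5% and 62.1% of these stages.

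The lower share at 13 hpf came from the outermost 1 Mb. It held 34.5% and 33.1% of the summits at 11 hpf and 26.6% and 29.2% at 13 hpf. From 1 to 2 Mb the stages overlapped, with means of 16.5% and 16.2%, and from 2 to 5 Mb the means were 18.5% and 18.6%. Further in, the order was turned. From 5 to 10 Mb the shares were 14.4% and 14.7% at 11 hpf and 17.3% and 16.6% at 13 hpf, and from 10 to 20 Mb they were 11.0% and 10.9% against 14.0% and 13.2%. The last 100 kb held 9.27% and 8.11% at 11 hpf and 5.82% and 7.12% at 13 hpf. Both ends took part, as the first 1 Mb of the chromosomes fell from a mean of 17.1% to 14.0% and the last 1 Mb from 16.7% to 13.9%.

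**Figure D2:**
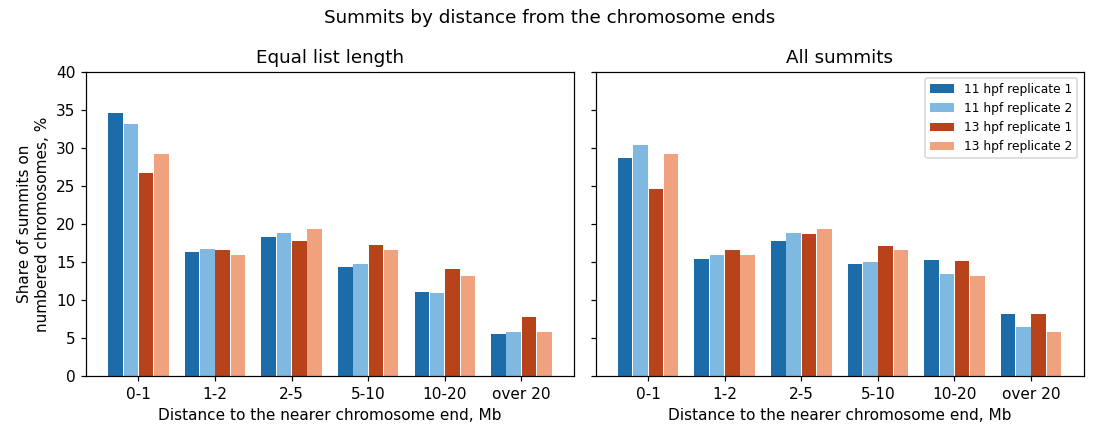
Share of the summits on numbered chromosomes (y axis, percent) by distance to the nearer chromosome end (x axis, Mb), with 1 bar per list, at equal length (left) and with all summits (right). At equal length the outermost 1 Mb holds 34.5% and 33.1% at 11 hpf against 26.6% and 29.2% at 13 hpf, and with all summits the stages overlap there.

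Near the ends the stages overlapped when all summits were used. Within 2 Mb they were 44.1% and 46.3% at 11 hpf and 41.1% and 45.1% at 13 hpf, and within 1 Mb 28.7% and 30.4% against 24.6% and 29.2%. Replicate 2 of 13 hpf thus lay between the 11 hpf replicates within 1 Mb, and replicate 1 of 13 hpf was lowest at both distances. Of the 6 distance classes, only that from 5 to 10 Mb kept the stages apart with all summits (14.7% and 15.01% against 17.0% and 16.6%).

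Each list was split by score into 4 equal parts, and the part with the highest scores had the largest share near the ends in every list. In that part, 35.6% and 36.2% of the 11 hpf summits and 32.1% and 37.6% of the 13 hpf summits lay within 1 Mb of an end. In the part with the lowest scores it was 25.5% and 28.4%, and 19.6% and 23.9%. The parts between them held 23.2% to 31.7% and were not in 1 order in all lists. When the same fraction of each list was taken, the highest of the 4 parts, the difference within 2 Mb was −0.57 percentage points in place of −6.17. The stages then overlapped, with 52.4% and 53.4% at 11 hpf against 50.5% and 54.1% at 13 hpf. Equal length takes a smaller and higher-scoring fraction at 11 hpf, and its part in the difference was not tested further. The 1000 highest-scoring summits of each list, which are also unequal fractions, gave −5.44 percentage points.

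**Figure D3:**
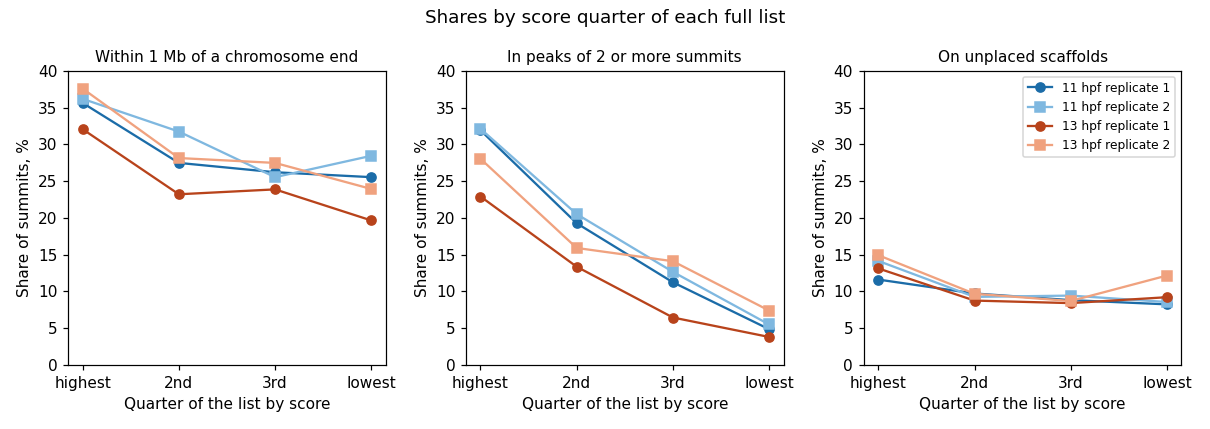
Share of summits (y axis, percent) within 1 Mb of a chromosome end (left), in peaks of 2 or more summits (middle) and on unplaced scaffolds (right), for the 4 equal parts of each full list ordered by score (x axis), with 1 line per list. The shares near the ends and in peaks of several summits are largest in the part with the highest scores of every list, at 32.1% to 37.6% and 22.9% to 32.1%.

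By chromosome, the share of a list's summits within 1 Mb of the ends of that chromosome was lower in both 13 hpf lists than in both 11 hpf lists on 14 of 25 chromosomes (56%), and higher on 1 (4%). The mean was lower on 22 (88%). In percentage points chromosomes 21 and 5 fell most, at 2.25% and 2.50% against 1.74% and 1.85% for chromosome 21, and at 2.16% and 2.41% against 1.60% and 1.80% for chromosome 5. The ends of chromosome 17 were the exception, with 1.47% and 1.11% at 11 hpf and 1.65% and 1.57% at 13 hpf. Within 2 Mb, 11 chromosomes (44%) were lower in both 13 hpf lists, none (0%) was higher, and the mean was lower on 20 (80%). With all summits, 7 chromosomes (28%) were lower within 1 Mb in both 13 hpf lists, 1 (4%) was higher, again chromosome 17, and the mean was lower on 19 (76%). Within 2 Mb these counts were 6 (24%), 3 (12%) and 20 (80%). With all summits chromosomes 21 and 5 thus did not keep their fall. Within 1 Mb both overlapped between the stages. Within 2 Mb chromosome 21 overlapped, and chromosome 5 was higher at 13 hpf, with 2.29% and 2.41% against 2.46% and 2.73%. The others higher there were chromosomes 17 and 18.

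At equal length a smaller share of summits lay in peaks with several summits at 13 hpf. The summits of a peak were counted in the full list, so that summits below the cut count toward the peak of a kept summit. More of the 11 hpf lists lay below the cut, so that equal length did not even out the summits per peak. Of the kept 11 hpf summits, 29.7% (95% Wilson interval 27.9 to 31.6%) and 25.01% (23.3 to 26.8%) lay in a peak with 2 or more summits, and 14.9% (13.5 to 16.4%) and 16.4% (14.9 to 17.9%) of the 13 hpf summits. The means were 27.4% ± 3.33 and 15.6% ± 1.04 (SD, n = 2 each), a ratio of 0.571 (two-sided exact permutation test, p = 0.333). The intervals take summits as independent, though those of the same peak lie together, and can thus be too narrow. The ratio was lower for peaks with more summits. It was 0.436 for 3 or more, with 12.7% and 9.23% against 4.84% and 4.72%, and 0.149 for 5 or more, with 3.49% and 2.01% against 0.369% and 0.451%. The 12 hpf lists had 16.8% ± 1.77 in peaks of 2 or more summits and 1.07% in each list in peaks of 5 or more, so that the former was near the 13 hpf mean and the latter between the stages.

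When all summits were used, these shares lay apart but closer. In peaks of 2 or more summits lay 16.8% and 17.7% at 11 hpf and 11.6% and 16.4% at 13 hpf, and in peaks of 3 or more 6.45% and 6.30% against 3.62% and 4.72%. In peaks of 5 or more summits lay 1.73% (1.46 to 2.05%) and 1.35% (1.06 to 1.73%) at 11 hpf. At 13 hpf it was 0.288% (0.156 to 0.529%) and 0.451% (0.252 to 0.806%). These intervals take summits as independent, but the summits came from 21 and 10 peaks at 11 hpf and 2 in each 13 hpf list. The intervals can thus be too narrow. Counted as peaks in place of summits, the stages overlapped, as 7.68% and 8.29% of the 11 hpf peaks had 2 or more summits against 5.48% and 7.98% of the 13 hpf peaks (two-sided exact permutation test, p = 0.667). Summits in peaks of exactly 2 also overlapped between the stages, with 10.4% and 11.4% against 7.998% and 11.6%. The share of summits in peaks of 2 or more also fell with the score in every list, from 31.9% and 32.1% at 11 hpf and 22.9% and 28.0% at 13 hpf in the part with the highest scores to 4.85% and 5.50%, and 3.797% and 7.39%, in the part with the lowest. Among the highest-scoring parts both 13 hpf lists thus stood below both 11 hpf lists. The part of list length and score in the size of the difference was not tested further.

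Peaks with 5 or more summits numbered 21 and 10 in the 11 hpf lists and 2 in each 13 hpf list. The 31 peaks at 11 hpf lie at 24 places, 7 of which were such peaks in both replicates. They span 272 to 850 bp between their outer summits, 5 lie on scaffolds, and 16 of the 26 on numbered chromosomes lie within 2 Mb of an end. The 4 peaks at 13 hpf lie at 3 places, of which 2 were such places at 11 hpf. The 13 hpf lists had summits at nearly all of these places. Replicate 1 of 13 hpf had a summit in all 31 peaks and 2 or more in 28, and replicate 2 had a summit in 30 and 2 or more in 27. The median number of summits in them was 3 in each 13 hpf list, 5 in each 12 hpf list, and 7 and 5 in the 11 hpf lists from which they were taken. These peaks were chosen by their 11 hpf numbers, which places the 11 hpf medians high by choice.

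The broadest peak found in both 11 hpf replicates was on chromosome 18 from 50865663 to 50866486, with 9 summits in 1 peak in replicate 1 and 8 in replicate 2. Summits of any peak within 250 bp of this stretch numbered 9 and 8 at 11 hpf and 6 and 7 at 13 hpf, where replicate 2 had 1 peak of 5. On chromosome 3 from 56795903 to 56796504 both 11 hpf lists had 1 peak of 8 summits, and the same count of summits gave 8 and 9 against 6 and 7, with no peak of 5 at 13 hpf. On chromosome 17 from 500234 to 500801 both 11 hpf lists had a peak of 7 summits, and the count of summits was 8 and 8 against 5 and 3. The scaffold Un_KN149723v1 held the peak of this size found in both 13 hpf replicates, with 5 and 6 summits near its start, where each 11 hpf list had 5 summits within 250 bp of the first of these peaks and 6 within that distance of the second, in smaller peaks. Genes and repeats at these places were not analysed here.

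Unplaced scaffolds did not change their share in 1 direction. At equal length they held 10.7% (95% Wilson interval 9.54 to 12.0%) and 11.6% (10.4 to 12.9%) of the summits at 11 hpf, and 10.5% (9.30 to 11.7%) and 11.4% (10.2 to 12.7%) at 13 hpf. The means were 11.1% ± 0.609 and 10.9% ± 0.638 (SD, n = 2 each), and the difference of −0.226 percentage points was smaller than the spread between replicates (two-sided exact permutation test, p = 0.667). The sign turned with all summits, with means of 9.96% and 10.6%. The 2439 kept summits lay on 125 and 133 scaffolds at 11 hpf and on 131 and 143 at 13 hpf. Of 234 scaffolds with a kept summit, 60 had one in all 4 lists, 13 in both 11 hpf lists alone and 13 in both 13 hpf lists alone.

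Single scaffolds with differing counts are given as examples. These were chosen after their values were seen, from the scaffolds with the most kept summits. How many of the 234 scaffolds with a kept summit keep the stages apart was not counted, so that no general difference is read from them. Un_KN149757v1 had 11 and 10 kept summits at 11 hpf and 8 and 9 at 13 hpf, and Un_KN149948v1 had 15 and 6 against 3 and 4. Un_KN149855v1 had 7 and 8 against 2 and 2, with 7 in each 12 hpf list, and with all summits its shares of the lists were 0.185% and 0.196% against 0.0575% and 0.0820%. In the other direction Un_KN149723v1 had 3 and 4 kept summits at 11 hpf and 7 and 6 at 13 hpf, with 7 in each 12 hpf list. Its shares with all summits were 0.106% and 0.153% at 11 hpf against 0.259% and 0.246% at 13 hpf, so that the stages lay apart in the same direction, on 8 and 7 against 9 and 6 summits.

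Shares per chromosome differed little. Among 26 classes (25 numbered chromosomes, and all scaffolds as 1), limma on the log2 share found none with an adjusted p below 0.05 (0%, with 4 at an unadjusted p below 0.05). Both 13 hpf lists stood above both 11 hpf lists for 4 classes (15.4%) and below them for 6 (23.1%). The pseudocount was 0.5 summits, and fold changes are on the log2 scale of shares with this pseudocount.

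Chromosome 4, whose long arm is known as a repeat-rich and late replicating stretch of the zebrafish genome, fell most. It held 94 kept summits in each 11 hpf list and 71 and 73 in the 13 hpf lists, which is 3.85% in each against 2.91% and 2.99% (log2 change −0.38, SE 0.093, limma adjusted p = 0.108). The 12 hpf lists had 3.12% and 3.85%, on either side. With all summits it held 3.96% and 3.69% at 11 hpf and 2.85% and 2.99% at 13 hpf (log2 change −0.38, limma adjusted p = 0.0048), and it was then the 1 class of 26 (3.85%) that passed the test. Replicates share the input of their stage, so that stage and input cannot be told apart for this result either. Chromosome 4 was lower at 13 hpf under all 14 other settings tried. Split at 10 Mb, a position chosen after the values were seen, its first stretch had 31 and 28 kept summits against 16 and 22. The remainder of the chromosome, which includes the long arm, had 63 and 66 against 55 and 51, so that the stages lay apart in both stretches. The 12 hpf lists had 24 and 26 kept summits in the first 10 Mb, and 52 and 68 in the remainder.

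The other chromosomes named by the rule were those with the largest changes whose lists did not overlap between the stages. Chromosome 23 held 4.10% and 3.73% of the kept summits at 11 hpf and 2.95% and 3.16% at 13 hpf (log2 change −0.36, SE 0.10), with 3.16% and 3.24% at 12 hpf. Chromosome 25 held 3.08% and 2.95% against 2.50% and 2.54% (log2 change −0.26, SE 0.079), and 3.28% in each 12 hpf list, above all 4. Of the rises, chromosome 1 held 2.71% and 2.62% against 3.28% and 3.32% (log2 change 0.31, SE 0.084), with 3.28% and 3.81% at 12 hpf. Chromosome 18 held 2.99% and 3.44% against 4.22% and 3.61%, with 3.08% in each 12 hpf list, within the 11 hpf values. Chromosome 20 held 3.12% and 3.69% against 3.77% and 4.43%, with 3.44% and 4.10% at 12 hpf. None of them passed the test, with limma adjusted p-values between 0.108 and 0.407. With all summits chromosome 1 overlapped, at 3.63% and 3.21% against 3.42% and 3.32%, and the other 4 kept the stages apart. Chromosomes 1 and 25 passed the test with scaffolds left out (limma adjusted p = 0.0395 for both), and chromosomes 1, 18 and 25 changed sign under 1 or more other list lengths.

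**Figure D4:**
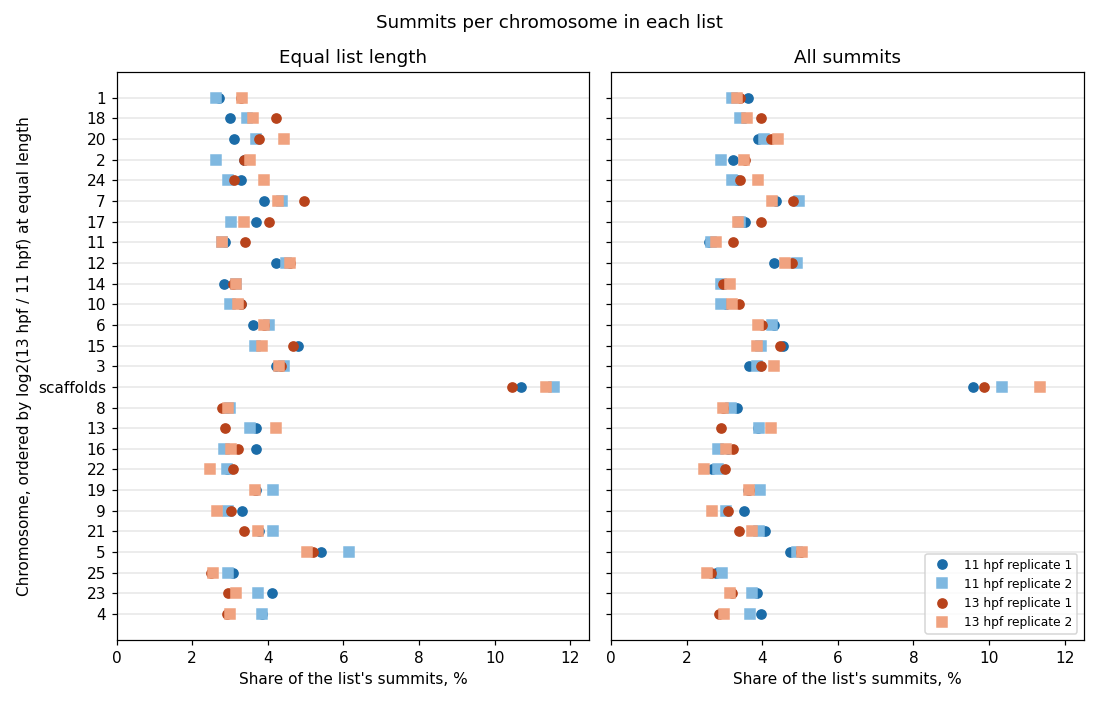
Share of each list's summits (x axis, percent) on each numbered chromosome and on all scaffolds (y axis, ordered by the log2 ratio of 13 hpf to 11 hpf at equal length), at equal length (left) and with all summits (right), with 1 point per list. Chromosome 4 sits at 3.85% in both 11 hpf lists and at 2.91% and 2.99% in the 13 hpf lists, and scaffolds overlap between the stages.

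In windows of 5 Mb with a mean of at least 5 kept summits, limma found none of 108 with an adjusted p below 0.05 (0%, with 16 at an unadjusted p below 0.05). Both 13 hpf lists stood above both 11 hpf lists in 20 windows (18.5%) and below them in 30 (27.8%). The 3 largest rises among the former and the 3 largest falls among the latter are named here. Chromosome 21 from 40 to 45 Mb had 4 and 5 kept summits at 11 hpf and 15 and 12 at 13 hpf (log2 change 1.48, SE 0.27, limma adjusted p = 0.286), and 11 and 12 at 12 hpf. Chromosome 12 from 40 to 45 Mb had 5 and 3 against 10 and 11, and 11 and 14 at 12 hpf. Chromosome 13 from 40 to 45 Mb had 5 and 2 against 9 and 8, and 7 in each 12 hpf list. In these 3 windows the 12 hpf lists stood above both 11 hpf lists. The windows were chosen in part for low 11 hpf counts, which places the 11 hpf counts low by choice. With all summits the shares were closer, as for chromosome 21 with 0.356% and 0.305% against 0.604% and 0.492%.

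The largest falls were on chromosome 4 from 5 to 10 Mb, with 9 and 7 kept summits against 3 and 4 (log2 change −1.09, SE 0.27, limma adjusted p = 0.286), and on chromosome 22 from 35 to 40 Mb, with 23 and 15 against 13 and 7. Chromosome 4 from 55 to 60 Mb had 11 and 7 against 6 and 4. In the same order of windows, the 12 hpf lists had 7 and 5, 16 and 14, and 6 and 6 kept summits. The window of chromosome 22 reaches the end of that chromosome, and its lists overlapped with all summits. A few summits per window limit what could be told, and differences of this size in single windows did not pass the test.

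Regions were then counted by the lists that hold them. At equal length the 4 lists gave 4819 regions. All 4 lists held 392 of them (8.13%), both 11 hpf lists and neither 13 hpf list held 275 (5.71%), and both 13 hpf lists and neither 11 hpf list held 266 (5.52%). Regions of a single list were the largest classes, with 1430 for 11 hpf and 1641 for 13 hpf. With all summits there were 8713 regions, and the counts were 630, 910 (10.4%) and 153 (1.76%). The near balance at equal length thus turned to a large excess of 11 hpf regions when the longer lists were used whole.

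Regions held by 13 hpf alone at equal length often had an 11 hpf summit that had not been kept in its own list. Its score was not compared with that of the 13 hpf summit. Of the 266 regions of 13 hpf, 54.9% (95% Wilson interval 48.9 to 60.8%) had a summit in a full 11 hpf list. Of the 275 regions of 11 hpf, 7.64% (5.05 to 11.4%) had one in a full 13 hpf list. Since 70.2% and 100% of the 13 hpf lists had been kept, against 32.2% and 53.2% of the 11 hpf lists, fewer summits at 13 hpf were left to fall in such regions.

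The other stages, which took no part in making these classes, had summits in most regions that more than 1 list held. A 12 hpf summit lay in 93.4% (90.5 to 95.4%) of the regions of all 4 lists, in 58.9% (53.0 to 64.6%) of those of 11 hpf alone and in 62.8% (56.8 to 68.4%) of those of 13 hpf alone. The intervals of the last 2 classes overlap. For regions of a single list the share was 35.8% at 11 hpf and 31.7% at 13 hpf. A 64C summit of either antibody lay in 99.2% of the regions of all 4 lists, in 94.9% of those of both 11 hpf lists and in 94.7% of those of both 13 hpf lists, beside 93.6% and 87.4% for single lists of 11 hpf and of 13 hpf. Over all 4819 regions the shares were 48.0% for 12 hpf and 92.6% for 64C, so that the 64C shares of the classes of 1 stage alone lay near that of all regions. The 64C SYSY list has no summit on scaffolds and stops before the last summit of the other lists on chromosomes 4, 21 and 18, by 14.6, 1.34 and 1.18 Mb.

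**Figure D5:**
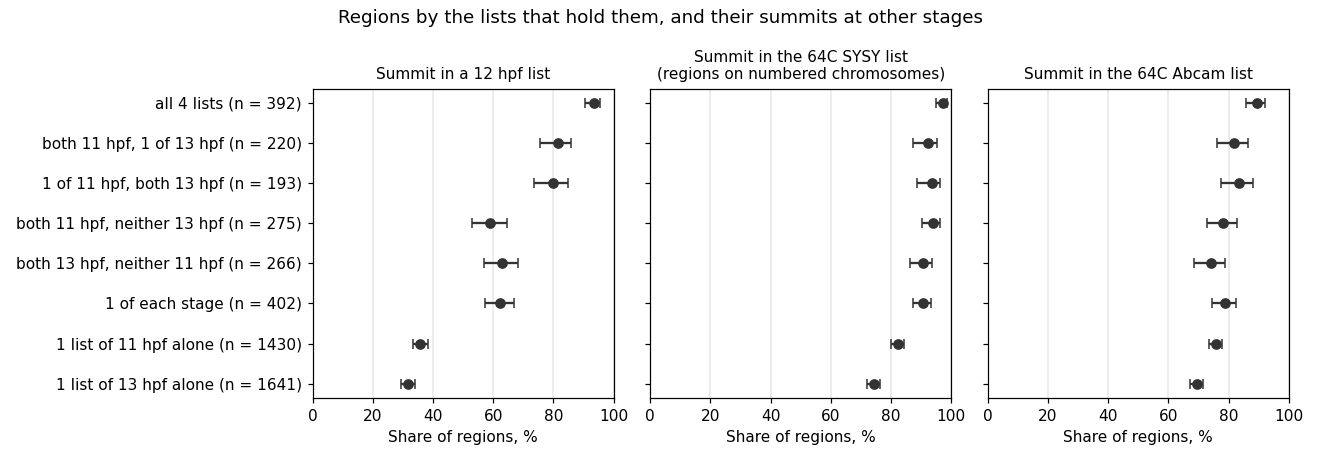
Share of regions with a summit (x axis, percent, with 95% Wilson intervals for counting error) in either 12 hpf list (left), in the 64C SYSY list for regions on numbered chromosomes (middle) and in the 64C Abcam list (right), by which of the 4 lists at equal length hold the region (y axis). Regions of all 4 lists are highest in each panel (93.4% at 12 hpf), and those of both lists of 1 stage alone overlap between the stages (58.9% and 62.8% at 12 hpf).

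The classes also differed in where they lie and in their scores. On numbered chromosomes, 55.1% (49.7 to 60.4%) of the regions of all 4 lists lay within 2 Mb of an end, against 46.8% (40.7 to 53.0%) for both 11 hpf lists alone, 41.4% (35.4 to 47.7%) for both 13 hpf lists alone, and 44.3% and 33.4% for single lists of 11 hpf and of 13 hpf. Scaffolds held 15.3% of the regions of all 4 lists and 9.82% and 8.27% of those of 1 stage alone. A peak of 2 or more summits, again counted in the full lists, lay in 68.6% of the regions of all 4 lists. It lay in 19.3% of those of 11 hpf alone and in 4.51% of those of 13 hpf alone. The median score percentile within the full lists was 85.3 for regions of all 4 lists, 81.5 for those of 11 hpf alone and 57.5 for those of 13 hpf alone, and the kept fraction sets a floor to it that is higher at 11 hpf.

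Regions held by all 4 lists carried more summits at 11 hpf. At equal length the mean number per region was 1.96 and 1.997 at 11 hpf and 1.77 and 1.85 at 13 hpf, a fall of 0.168 in the means (two-sided exact permutation test, p = 0.333). With all summits it was 2.50 and 2.20 against 1.74 and 1.71, in 630 regions. Taking 1 summit per peak or joining summits within 500 bp removed this difference (0.024 and 0.0017), as these choices leave at most 1 summit of a peak or cluster.

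A stricter rule required a kept summit in both replicates of a stage and no summit of the other stage's full lists within 1000 bp. Of the 4819 regions at equal length, 188 met it for 11 hpf and 78 for 13 hpf. A 12 hpf summit lay in 56.9% (49.8 to 63.8%) of the former and in 35.9% (26.1 to 47.0%) of the latter. The intervals cover counting error only and not the spread between the lists of a stage. Without the stricter rule the order was the other way, with 58.9% for 11 hpf alone and 62.8% for 13 hpf alone. Within 2 Mb of an end lay 43.6% (36.4 to 51.1%) and 28.9% (19.96 to 39.96%). The 13 hpf regions had to be absent from the longer lists. Their median score percentile was 59.1 against 80.8, where the kept fraction sets a higher floor at 11 hpf. Whether score has a part in the share at 12 hpf was not tested. Of the 188 regions of 11 hpf, 16 lay on scaffolds, which held 8.65% of all 4819 regions at equal length. Among chromosomes, 23 and 4 held the most of them, 16 and 13, before chromosomes 5, 10, 16 and 18 with 10 each. Of the 78 regions of 13 hpf, 2 lay on scaffolds. Chromosomes 13 and 14 held 7 and 6 of them, little more than the 5 each on chromosomes 5, 11, 21 and 24. The share of all regions on each chromosome was not set beside these counts, so that no chromosome is read from them as holding more than its share.

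The regions with the highest mean score percentile were named for each kind. Among the 11 hpf regions the first was on scaffold Un_KN150493v1 at 12946 to 12947, with scores of 35.05 and 29.4 and no summit of either 13 hpf list on the scaffold. Both 12 hpf lists had a summit there. On chromosome 14 from 50870444 to 50870451 the scores were 30.1 and 32.4, at percentiles 99.8 in both 11 hpf lists, and the nearest 13 hpf summits were 32329 and 143482 bp away. On chromosome 17 from 48834191 to 48834197 the scores were 24.5 and 27.8, with the nearest 13 hpf summits 37720 and 654287 bp away. Scaffold Un_KN149855v1 at 18682 to 18683 had scores of 36.6 and 22.9, and 13 hpf summits 4118 bp away in both lists. On chromosome 7 from 3770205 to 3770323 both 11 hpf lists had 2 summits, with best scores of 24.5 in each. These 5 regions lay above the percentile 99.1 in both 11 hpf lists, and each had a summit in at least 1 of the 12 hpf lists, which were not used to choose them.

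Among the 13 hpf regions the first was on chromosome 16 from 3918083 to 3918087, with scores of 11.9 and 14.5 at percentiles 96.1 and 95.9. Its nearest 11 hpf summits were 246339 and 24286 bp away, and both 12 hpf lists and both 64C lists had a summit there. On chromosome 14 from 42201716 to 42201717 the scores were 10.6 and 13.2, with no 12 hpf summit. On chromosome 25 from 4162441 to 4162447 they were 9.55 and 13.3, with a summit in each 12 hpf list. On chromosome 18 from 44925958 to 44925966 they were 10.7 and 10.1, and on chromosome 5 from 69924308 to 69924309 they were 18.0 and 8.30, both with no 12 hpf summit. All 5 had a single summit in each 13 hpf list and 1 in the 64C SYSY list. The leading 13 hpf regions stood lower in their own lists, at mean percentiles of 89.9 to 96.0, than the leading 11 hpf regions, at 99.4 to 99.8. The 13 hpf regions had to be absent from longer lists, and a smaller fraction of the 11 hpf lists had been kept. Whether either has a part in this order was not tested.

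The leading regions of both stages lay near the top of all 4 lists. On chromosome 20 from 55006800 to 55006895, 0.332 Mb from the end, the scores were 38.1 and 35.9 at 11 hpf and 31.9 and 25.6 at 13 hpf. Replicate 1 of 13 hpf had the highest score of its list there. Scaffold Un_KN150535v1 from 1277 to 1387 had 27.2 in both 11 hpf lists and 25.6 and 26.03 in the 13 hpf lists. Scaffold Un_KN149757v1 from 15292 to 16045 had 7 summits in each 11 hpf list and 5 in each 13 hpf list, with best scores of 38.5, 35.9, 22.0 and 21.6. Chromosome 16 from 53362956 to 53363070 had scores of 23.5, 29.95, 20.2 and 23.3. Chromosome 18 from 50864571 to 50864883 had 4 summits in each 11 hpf list and 3 and 2 in the 13 hpf lists, just before the broad peak described above. All 5 had summits in both 12 hpf lists and in the 64C Abcam list. Scores are given for each list alone, since they depend on the reads of the library.

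At equal length the 11 hpf summits lay near summits of the other stages more often than those of 13 hpf. On numbered chromosomes, 90.2% and 91.4% of them lay within 250 bp of a 64C SYSY summit, against 84.9% and 89.1% at 13 hpf, and for the 64C Abcam list on all sequences the shares were 81.6% and 82.2% against 76.8% and 78.9%. Near a kept summit of 12 hpf replicate 1 lay 44.6% and 44.9% against 39.8% and 43.4%, and of replicate 2 45.0% in each against 38.9% and 43.8%. In each of these 4 measures both 13 hpf lists stood below both 11 hpf lists (two-sided exact permutation test, p = 0.333 for each). Replicate 1 of 13 hpf was the lowest list in each. With all summits the stages overlapped in all 4, and the means near 12 hpf were then higher at 13 hpf. Near 12 hpf replicate 1 lay 35.8% and 44.6% at 11 hpf against 42.2% and 51.8% at 13 hpf, and near replicate 2 39.2% and 48.95% against 45.9% and 56.9%, in lists of unequal length.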

How the data were processed

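6mA-IP-seq was analysed in 4 IP libraries (11 and 13 hpf, SYSY, 2 biological replicates each), with 4 other IP lists as side values. Groups came from the sample labels. Per the labels and the study's methods, the authors aligned reads with Bowtie 1.0 to danRer10 and reported 1 randomly chosen best match of a read. MACS2 called peaks for each IP library over the input of its stage at a false discovery rate of 0.01. They deposited summit positions with the −log10 of the q-value, which served only to rank summits within a list. Sequencing depth is not given in the deposited lists and was not analysed here, which limits what a count can show. Where sequence is repeated, the copy that carries a summit is uncertain. All 6 lists from 11 to 13 hpf carry a common mark in their peak names that the sources used here do not explain.

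Positions were counted from 1. The 2439 highest-scoring summits were taken per list, ties by position. Summits matched within 250 bp, and 95% Wilson intervals cover counting error only. They take summits and regions as independent of each other. Single values were tested by exact permutation of 2 lists against 2. Shares of 26 chromosome classes and of 5-Mb windows were tested with limma 3.58.1 (log2 of the percent share, pseudocount 0.5 summits, trend, Benjamini-Hochberg). Named were classes and windows past an adjusted p of 0.05 and the 3 largest rises and falls whose lists did not overlap, and per kind the 5 regions with the highest mean score percentile. Matching and window tests were tested on simulated data. The window check required the direction of planted changes and no number of calls, and the power of the window test is not given here. Alternatives were other list lengths, ties, matching distances, end distances, pseudocounts, 1 summit per peak, joined summits, numbered chromosomes only, each list left out, and a replicate block. The measures, regions and rules were chosen with earlier results of these data known. Genome sequence, repeats and genes were not used here. The tools were R 4.3.3, Python 3.11.15, matplotlib 3.10.9, SciPy 1.17.1, pandas 2.3.3 and NumPy 2.4.6.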

Additional observations from a re-analysis of the deposited data

How the results depend on the processing

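Under every alternative run, the mean differences near chromosome ends, in peaks of several summits and in overlap within stages kept their sign. A kept sign does not mean that the stages lay apart. Within 2 Mb of an end they overlapped with all summits and in the highest of 4 equal score parts. No difference could pass a threshold with 4 lists. The fall within 2 Mb ran from 0.567 to 7.13 percentage points, that in multi-summit peaks from 3.26 to 14.1, and the overlap difference from 4.88 to 10.7. The change in the share on scaffolds turned positive with all summits (0.648), with scores at or above the median (0.525), with the highest of 4 equal score parts (1.15), and with a list left out (−0.677 to 0.226). Summits per shared region turned to 0.0237 with 1 summit per peak and to 0.00174 with summits within 500 bp joined.

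Regions of both 11 hpf lists alone numbered 910 of 8713 (10.4%) with all summits, beside 275 of 4819 (5.71%) at equal length. They numbered 526 at or above the median score, 143 with the 1000 highest scores, and 376 to 1025 with a list left out. The total of regions differs between settings and was not set beside these other counts. No gain or loss is therefore read from them. Regions of both 13 hpf lists alone numbered 153 (1.76%) with all summits, beside 266 (5.52%) at equal length. They numbered 89 at or above the median score, 124 with the 1000 highest scores, 362 to 1164 with a list left out, and 59 in the highest score part. Those of every list numbered 630 (7.23%) with all summits, beside 392 (8.13%) at equal length. They numbered 175 in the highest score part and 182 with the 1000 highest scores. With a list left out, where the remaining replicate stands for its stage, they numbered 489 to 519.

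Chromosome classes past the test numbered 1 with all summits and 2 with numbered chromosomes only. Of 26 classes, those higher at 13 hpf in both lists numbered 9 with all summits and 2 at or above the median score. With a list left out, 7 to 10 classes were higher and 8 to 10 lower. A stage then has a single list, so that the condition is looser than with both lists. Windows higher in both lists numbered 49 of 280 with no minimum and 45 of 175 with all summits, beside 20 of 108 in the main comparison. They numbered 13 of 66 in the highest score part and 10 of 63 with the 1000 highest scores. Lower windows numbered 19 of 102 at or above the median score, 16 of 66 and 15 of 63 in the same order. With a list left out, again under the looser condition, 29 to 41 were higher and 34 to 46 lower, of 106 to 112. The number of windows tested thus differs between these settings. Windows past the test numbered 0 to 1 with a list left out, the 1 without 13 hpf replicate 2 (limma adjusted p = 0.0427). Chromosome 1 turned to −0.013 with all summits and to −0.0038 in the highest score part, chromosome 18 to −0.23 in that part and −0.31 with the 1000 highest scores, and chromosome 25 to 0.10 at or above the median score, 0.026 in that part and 0.13 with the 1000 highest scores. The window of chromosome 22 turned to 0.19 in that part. The highest score part and the 1000 highest scores were chosen after seeing the data.

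The replicates share only a number. Same-numbered lists deviated together by r = 0.146 over chromosomes and 0.0153 over windows, in 2 pairs. With the replicate block 0 classes and 0 windows passed. The differences in means (−3125.5 summits, −6.17 points within 2 Mb, −11.7 in multi-summit peaks, −0.226 on scaffolds) cannot change with it. Each stage holds both replicate numbers, so that this sameness carries no information. Their exact sign-flip p was 0.5, the smallest that test can give. Sequencing depth was not analysed here, and its part in list length and score was not tested.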
